A study of Mus musculus with 24 samples.

Results

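Gfi1, Irf8, Irf4, Klf4, Egr1, Egr2, Id2 and Zeb2 are 8 genes for transcription regulators that take part in the choice between the granulocyte and the monocyte fate. They are 8 of 21938 protein-coding genes in the annotation of the mouse genome (GENCODE, build mm10). They were chosen for their known roles by a rule that uses no measured value, with earlier results of these data known. Chromatin accessibility was described for each gene together with 60 kb on either side, 1161774 bp in all. On the plus strand lie Irf8 at chr8:120736358-120756694, Irf4 at chr13:30749226-30766976, Egr2 at chr10:67535475-67542188 and Egr1 on chromosome 18. On the minus strand lie Gfi1 at chr5:107716657-107726036, Klf4 at chr4:55527143-55532466, Id2 at chr12:25093799-25097140 and Zeb2 at chr2:44983632-45117395. Distances below are in kb from the annotated gene start along the direction of transcription, and a negative distance lies upstream.

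A granulocyte-monocyte progenitor (GMP) can give rise to neutrophils or to monocytes, and a small set of mutually opposing regulators acts on that choice. Gfi1, a zinc-finger repressor, favours granulocytes and holds back monocyte genes. Irf8, an interferon regulatory factor that often binds DNA together with Pu.1, favours monocytes and dendritic cells and restrains neutrophil production, and Irf4 is its close relative. Klf4 acts in monocyte differentiation, and Egr1 and Egr2 are early-response zinc-finger activators that promote the macrophage programme and oppose Gfi1. Id2 is an inhibitor that keeps E proteins off DNA, and Zeb2 is an E-box-binding repressor needed for differentiation of several blood lineages. Accessible elements at such genes are the promoters and enhancers at which factors such as Pu.1 and the C/EBP family can bind.

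The study used ATAC-seq, in which the transposase Tn5 cuts and tags open DNA, on 24 libraries in 11 groups of flow-sorted bone marrow cells from C57BL/6 mice. Daxx, a chaperone for the histone variant H3.3, was deleted in Daxx F/F Cre +/- animals (Daxx-KO), and controls were Daxx +/+ Cre +/- (Daxx-WT), so that both carried Cre. Long-term haematopoietic stem cells (LT-HSCs), common myeloid progenitors (CMPs) and GMPs had 2 libraries per genotype and carry no time in their labels. The study's methods give 3 weeks post induction (w.p.i.) with tamoxifen in mice carrying Rosa26CreERT2, a Cre that is expressed widely and is not restricted to blood. LT-HSCs at 3 days post induction (d.p.i.) had 3 Daxx-KO and 2 Daxx-WT libraries, and their sort also excluded Il-7Ra+ and Flk2+ cells. KLS cells (c-Kit+ Lin- Sca-1+, the fraction that holds stem and multipotent progenitor cells) at 3 w.p.i. had 3 Daxx-KO libraries, 2 Daxx-WT libraries and 2 libraries floxed on both alleles of Daxx (F/F) and also of Pu.1 (F/F), with Cre +/-, in which Daxx and Pu.1 (gene Spi1) are deleted together (DKO). The double floxed line was bred on Mx1Cre, an interferon-inducible Cre activated with pI:pC, and the study's methods name the same driver for KLS cells of 3 w.p.i. in their RNA measurements, without repeating it for the ATAC-seq of Daxx-KO KLS cells. Ages are not in the labels, both sexes were used, and the study's methods describe the libraries as biological replicates. No label ties a library to an animal, so p-values measure the spread between these libraries.

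The values came from 11 peak lists, 1 per group, and from 3 tables of differential sites. A peak list has no replicates, and peaks in it are compared by presence, width and, in 5 lists, fold enrichment over background, without a test. The site tables hold the windows of 600 bp that the authors' caller selected as different, merged into sites, with a scaled read count for every library. Mean reads per window ran from 4.21 to 9.60 in the LT-HSC table, from 4.54 to 8.36 in the KLS Daxx-KO table and from 7.45 to 16 in the DKO table, and total reads per library are not in the files. The deletions were visible in the sites: at Daxx the longest site held 54.6, 90.1 and 61.2 scaled reads in Daxx-KO KLS against 255 and 295 in Daxx-WT, and the last-exon site of Spi1 held 2.12 and 4.68 in DKO against 31.1 and 58.1. The GMP lists held promoter peaks at all 7 GMP marker genes tested, including Mpo and Elane, and 4 T cell marker genes had none in any list, while Ly6a, which encodes Sca-1, had none in any list either.

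Sequences are shown for 5 elements on which the results below turn, read from the mm10 genome around the summit of the strongest Daxx-WT KLS peak (200 bases each) or before the RefSeq start (the Irf8 promoter). Capitals mark matches to a Pu.1 motif (GAGGAAGT) or a C/EBP motif (TTGCNNAA, with N any base), searched on both strands; matches of the 2 did not overlap. Motifs for IRF factors (GAAA, any 2 bases, then GAAA), for the Ets-IRF pair bound by Pu.1 with Irf8 or Irf4 (GGAA, any 2 bases, then GAAA) and for Egr factors (GCGTGGGCG) were searched as well and have no match in these 5 windows. The Irf8 element lies at chr8:120792789-120792988, downstream of Irf8 and inside Gm20388, a long gene model that spans the whole Irf8 region, and is shown because it is the downstream enhancer region of Irf8 and was absent from the DKO list alone. The others are shown because their sites rose or fell in the tables described below. The Gfi1 element lies at chr5:107759193-107759392 in Evi5, the Irf4 element at chr13:30786237-30786436 in an exon of the non-coding gene Gm29675, and the Egr2 element at chr10:67566267-67566466 between genes. The Irf8 promoter stretch lies at chr8:120736108-120736357. All are plus strand, 5′ to 3′.
Irf8 +56.7 kb: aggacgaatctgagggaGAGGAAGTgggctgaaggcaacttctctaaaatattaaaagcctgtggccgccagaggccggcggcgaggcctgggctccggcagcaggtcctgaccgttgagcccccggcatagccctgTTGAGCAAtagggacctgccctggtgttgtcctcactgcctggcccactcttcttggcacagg
Gfi1 -33.5 kb: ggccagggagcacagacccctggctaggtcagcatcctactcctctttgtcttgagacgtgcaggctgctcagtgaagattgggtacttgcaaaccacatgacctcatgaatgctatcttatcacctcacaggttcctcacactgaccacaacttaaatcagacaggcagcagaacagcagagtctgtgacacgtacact
Irf4 +36.8 kb: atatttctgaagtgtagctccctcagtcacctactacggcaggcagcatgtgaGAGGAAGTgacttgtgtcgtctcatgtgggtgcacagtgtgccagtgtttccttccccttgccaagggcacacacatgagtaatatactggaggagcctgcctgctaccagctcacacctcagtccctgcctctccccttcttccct
Egr2 +30.8 kb: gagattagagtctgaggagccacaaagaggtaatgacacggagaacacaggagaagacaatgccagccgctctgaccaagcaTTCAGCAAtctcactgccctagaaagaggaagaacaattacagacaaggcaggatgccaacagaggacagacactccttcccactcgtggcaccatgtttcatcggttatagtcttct
Irf8 promoter: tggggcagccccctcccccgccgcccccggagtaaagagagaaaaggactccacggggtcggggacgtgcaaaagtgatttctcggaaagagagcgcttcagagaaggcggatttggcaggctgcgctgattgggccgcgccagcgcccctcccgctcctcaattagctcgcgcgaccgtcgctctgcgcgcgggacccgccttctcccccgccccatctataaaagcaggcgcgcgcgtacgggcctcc

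Over the 33325 windows of 200 bp around the peaks of the Daxx-WT KLS list, 7.28% held the Pu.1 motif, 7.71% the C/EBP motif, 3.65% the IRF motif, 2.55% the Ets-IRF motif and 0.483% the Egr motif. Of the 46 such windows at the 8 genes, 5 held the Pu.1 motif (10.9%), at Irf8 +56.7 kb, Irf4 +37.0 kb, Egr1 -3.6 kb, Id2 +42.3 kb and Id2 -60.3 kb. The C/EBP motif was in 4 windows (8.70%), at Irf8 +56.7 kb, Egr2 +30.8 kb, Id2 -60.3 kb and Zeb2 +35.8 kb. The IRF motif was in 2 (4.35%), at Irf8 +16 kb and Egr2 -31.5 kb. The windows at Irf8 +56.7 kb and Id2 -60.3 kb therefore held both a Pu.1 and a C/EBP match, and no member window held an Ets-IRF or Egr match. A match of letters is a description and not a binding site.

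**Figure D1:**
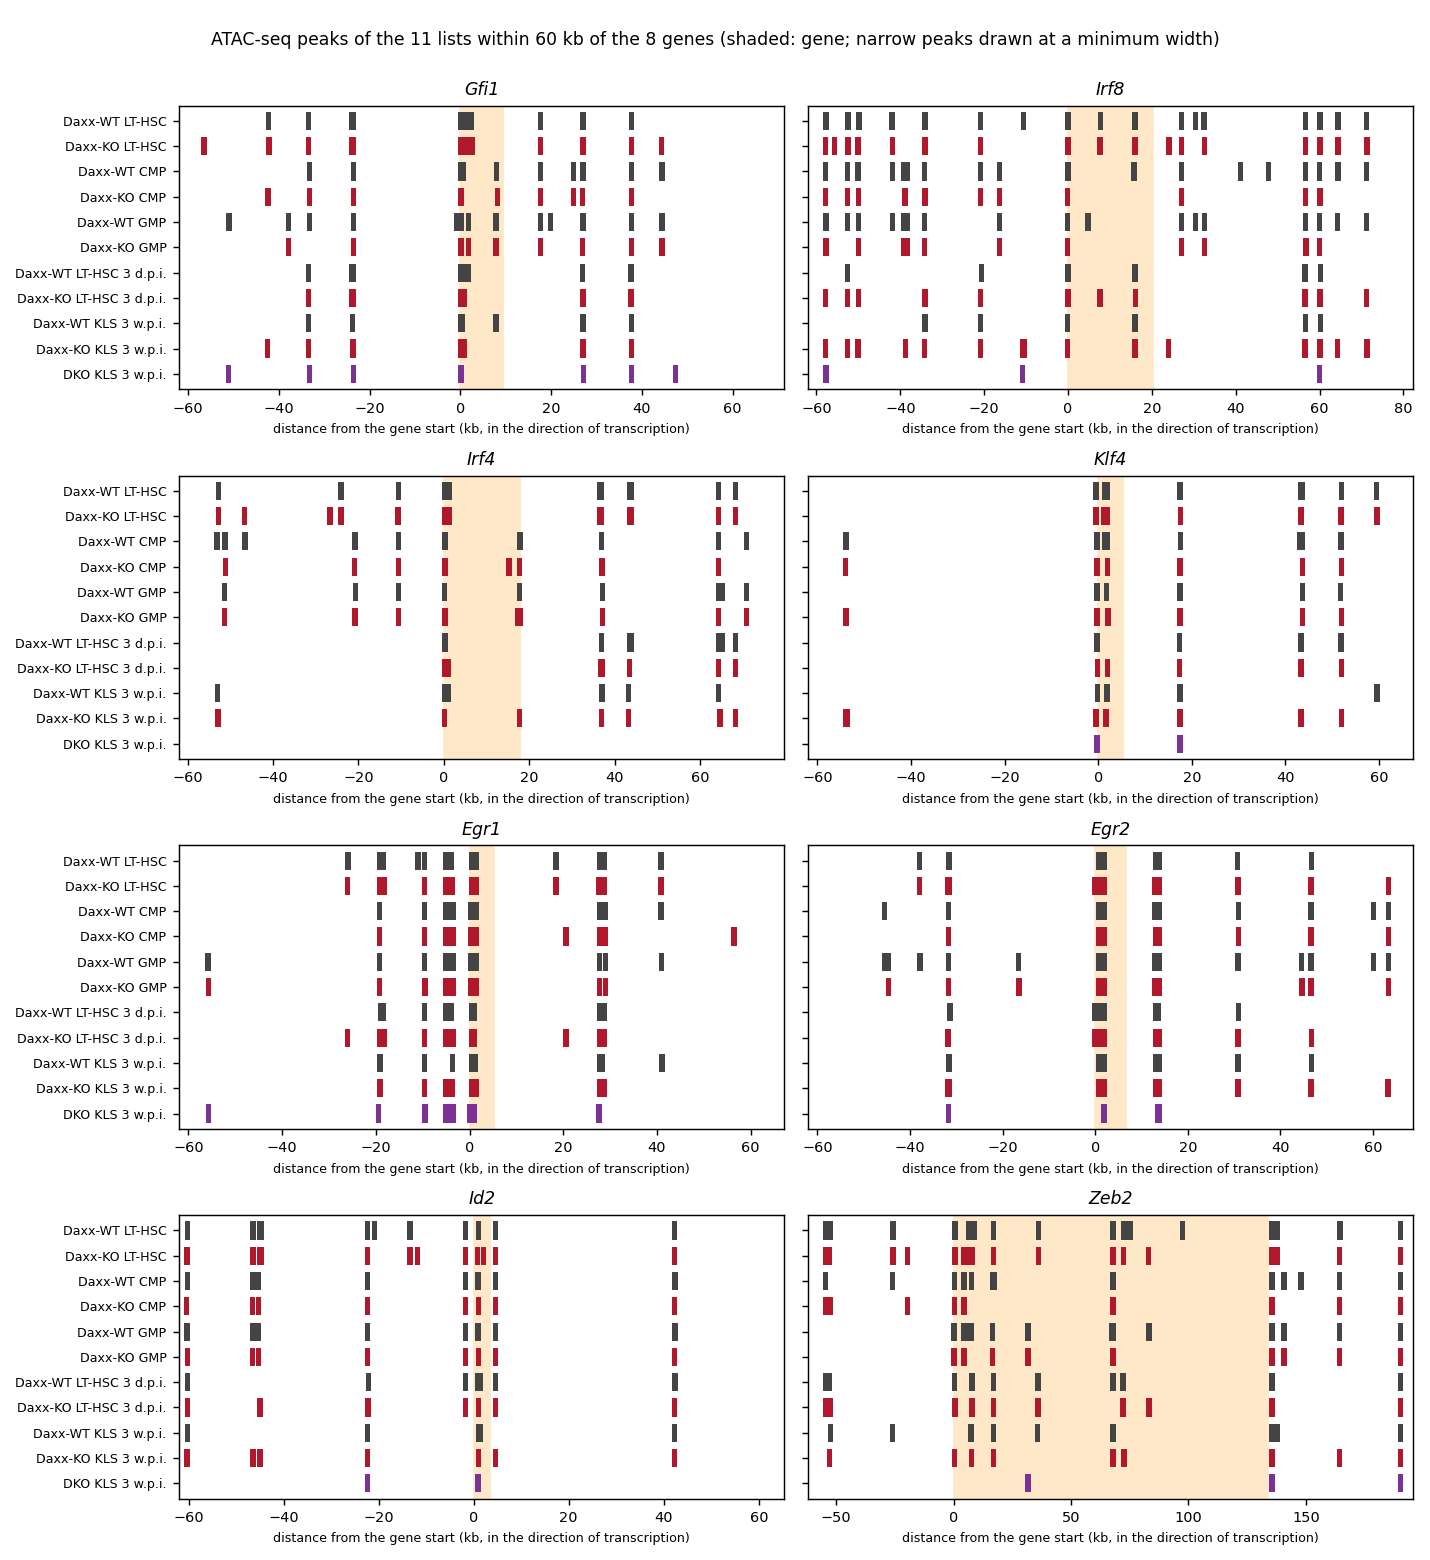
Position of every ATAC-seq peak within 60 kb of the 8 genes in each of the 11 lists. The x axis is the distance from the gene start in kb in the direction of transcription, each row is 1 list, the shaded band is the gene, and narrow peaks are drawn at a minimum width. The Irf4 panel has no peak in the DKO row, and the Irf8 row of DKO has 3 peaks where Daxx-KO KLS has 14.

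Joined over the lists, the peaks formed 123 elements. Of these, 19 were in all 11 lists, 5 of them at a promoter and 14 distal, and another 19 were in 1 list only. Irf8 and Zeb2 had the most elements, 24 each, and Klf4 the fewest, 7. Irf8 had 1 element in all lists, at +60.1 kb, and Irf4 had 0, whereas Egr1 had 5 and Gfi1 4. Egr1, whose promoter, -4.0 kb, -9.6 kb, -18.7 kb and +28.3 kb elements were in every list, was thus the member with the most elements common to every list.

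All 8 promoters, within 1000 bp of an annotated start, had a peak in each of the 10 lists other than DKO. In the DKO list 5 of 8 had one, and Irf8, Irf4 and Zeb2 did not. Over all protein-coding genes the share with a promoter peak was 51.1% in the DKO list and ran from 58.7% in Daxx-WT KLS to 68.9% in Daxx-KO LT-HSC. The Irf8 promoter peak had a fold enrichment of 7.72 in Daxx-WT KLS (percentile 78.6 of that list) and 10.6 in Daxx-KO KLS (percentile 91.8), so it ranked among the stronger peaks of lists beside the one in which it was absent. At Zeb2 the peak at the main start was weak where fold enrichment was given, 2.58 for Daxx-WT and 3.85 for Daxx-KO at 3 d.p.i. and 3.65 for Daxx-KO KLS. It was absent from Daxx-WT KLS, where the promoter call came from the +7.8 kb element at an alternative start beside Zeb2os, with a fold enrichment of 2.55 (percentile 0.348). The Egr1 promoter was present in every list, with fold enrichment from 5.28 to 6.08 in the Daxx-WT and Daxx-KO lists that give it, and its DKO interval was split into peaks of 3.51 and 5.77. The promoters of Egr2 and Id2 were about as strong in DKO as in Daxx-WT KLS, at 7.48 and 7.34 for the strongest Egr2 peak and at 6.09 and 6.65 for Id2.

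The Irf8 +56.7 kb element, the known downstream enhancer region of the gene, was in 10 lists and absent from DKO. It was 911 bp wide in Daxx-WT LT-HSC, 1001 bp in Daxx-KO LT-HSC, 1090 bp in Daxx-WT CMP, 1162 bp in Daxx-KO CMP, 1189 bp in Daxx-WT GMP and 1197 bp in Daxx-KO GMP. It was therefore wider in the progenitor lists than in the LT-HSC lists of either genotype. At 3 d.p.i. it was a narrow, weak peak in LT-HSCs, 624 bp with a fold enrichment of 3.11 (percentile 3.22) in Daxx-WT and 587 bp with 3.71 (percentile 10.3) in Daxx-KO. In KLS cells its fold enrichment was 4.12 (percentile 15.7) in Daxx-WT and 5.73 (percentile 40.6) in Daxx-KO. No differential site overlapped +55 to +58 kb in any of the 3 tables, which says only that the authors' caller did not select a window there. The neighbouring +60.1 kb element was in all 11 lists, DKO included.

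Among the strongest distal elements, Gfi1 -33.5 kb stood near the top of its lists. This element lies in Evi5, near a well-studied upstream enhancer of Gfi1. Its fold enrichment was 12.4 in Daxx-WT KLS (percentile 99.6), 13.0 in Daxx-KO KLS (percentile 98.5) and 5.54 in DKO (percentile 60.5). In the LT-HSC lists of 3 d.p.i. it was 16.7 for Daxx-WT and 17.4 for Daxx-KO. It was 981 bp wide in Daxx-WT LT-HSC, 627 bp in Daxx-WT CMP and 533 bp in Daxx-WT GMP. The median widths of these lists fell in the same order, at 889, 651 and 607 bp. The element was missing from the Daxx-KO GMP list alone. Klf4 +17.5 kb was in every list, with a fold enrichment of 11 in Daxx-WT KLS, 13.5 in Daxx-KO KLS and 6.7 in DKO. The KLS lists differ in length and in their median fold enrichment, which was 5.67 for Daxx-WT, 6.28 for Daxx-KO and 4.93 for DKO, so values set across them are descriptions. Egr2 +13.4 kb, in the neighbouring gene Ado, had 6.67 in Daxx-WT KLS, 9.07 in Daxx-KO KLS and 6.5 in DKO, at percentiles of 66.1, 82.2 and 74.5. Zeb2 +190.4 kb in Gtdc1 was close across the KLS lists, at 6.52, 6.35 and 6.34. Id2 -22.2 kb had 7.99, 9.58 and 5.01, and Irf4 +36.8 kb had 6.85 in Daxx-WT KLS and 9.12 in Daxx-KO KLS and was absent from DKO.

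**Figure D2:**
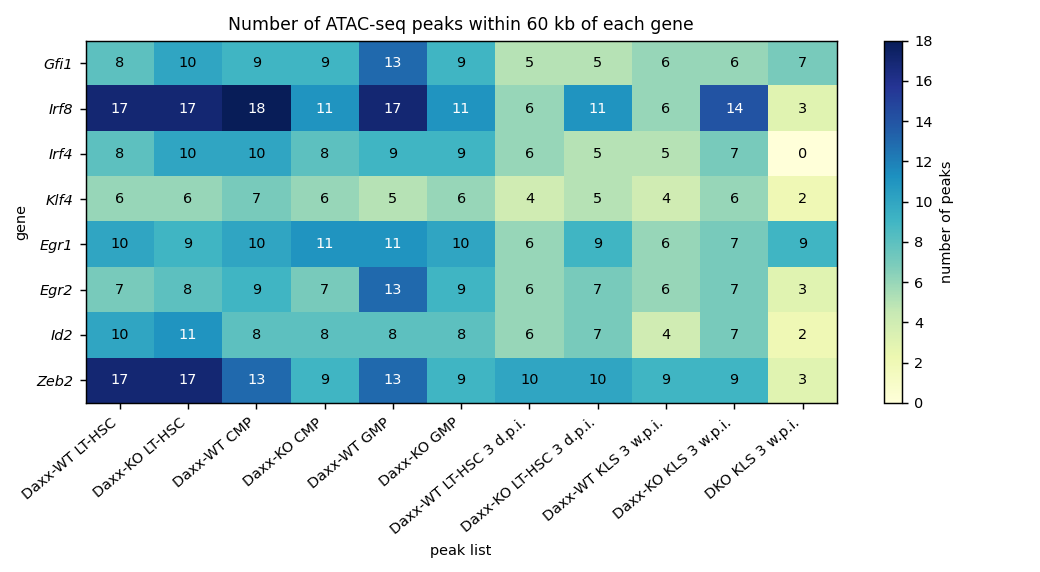
Number of ATAC-seq peaks within 60 kb of each gene (rows) in each of the 11 lists (columns), with the colour scale giving the same count. Irf8 has 18 peaks in Daxx-WT CMP and 11 in Daxx-KO CMP, 6 and 14 in Daxx-WT and Daxx-KO KLS, and 3 in DKO.

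Across the Daxx-WT lists with no time label, 13 of 112 elements were in both CMPs and GMPs and not in LT-HSCs (11.6%, against 13.7% of the 91244 elements of the whole genome), and 19 were in LT-HSCs and in neither progenitor list (against 17.3% of the elements of the genome). Both shares of the members lay near those of the genome. The first set lay at Irf4 (4 elements, including the -51.3, -20.8 and +17.8 kb elements), Egr2 (3), Irf8 (2, at -39.0 and -16.4 kb), Gfi1 (2) and Zeb2 (2). The second set was led by Zeb2 with 7 elements, followed by Irf4 and Egr1 with 3 each. Of the 13 progenitor elements, 8 were in the Daxx-KO CMP list, 11 in the Daxx-KO GMP list and 3 in the Daxx-KO LT-HSC list. Those 3 were Gfi1 +44.3 kb, Egr2 +63.3 kb and Zeb2 +4.3 kb. Of the 19 LT-HSC elements, 14 were in Daxx-KO LT-HSC, 2 in Daxx-KO CMP and 0 in Daxx-KO GMP. Genome-wide shares were not taken for these Daxx-KO counts, so they do not set the members apart from other elements. With Daxx-KO lists throughout, 7 of 105 elements were in both progenitors alone (6.67%, against 6.29% genome-wide) and 29 in LT-HSCs alone (27.6%, against 30.1%). The Daxx-KO progenitor lists are also shorter, with 50590 and 49677 peaks against 66070 and 65306 in Daxx-WT.

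Between genotypes, no element was in all 5 Daxx-WT lists and 0 Daxx-KO lists, or the reverse; 34 elements were in more Daxx-WT lists, 35 in more Daxx-KO lists and 54 in equally many. In LT-HSCs 13 of 88 Daxx-KO peaks at the members were absent from Daxx-WT (14.8%, against 13.9% of all Daxx-KO peaks), and 6 of 83 Daxx-WT peaks were absent from Daxx-KO (7.23%, against 6.78%). In CMPs the counts were 6 of 69 for Daxx-KO (8.70%, against 6.26%) and 20 of 84 for Daxx-WT (23.8%, against 28.5%). In GMPs they were 1 of 71 (1.41%, against 4.55%) and 20 of 89 (22.5%, against 27.6%). The member shares lay near those of the whole lists in every population, so the member peaks followed their lists. By gene, the Daxx-WT peaks missing in Daxx-KO CMPs were 6 of 18 at Irf8, 6 of 13 at Zeb2 and 3 of 10 at Irf4, counts too small to set the genes apart. In Daxx-KO GMPs they were 6 of 17 at Irf8 and 4 of 13 each at Gfi1, Egr2 and Zeb2. The Irf8 peaks at -41.8, +64.4 and +71.3 kb were missing in both. Those of Gfi1 in GMPs included -33.5 kb and the promoter-side peak at -0.9 kb. The 1 Daxx-KO GMP peak absent from Daxx-WT was Klf4 -53.7 kb, an element that was also in the CMP lists of both genotypes and in Daxx-KO KLS.

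At 3 d.p.i., 11 of 59 Daxx-KO LT-HSC peaks at the members were absent from Daxx-WT (18.6%, against 24.1% of the list) and 2 of 49 Daxx-WT peaks were absent from Daxx-KO (4.08%, against 8.68%). In KLS cells 23 of 63 Daxx-KO peaks were absent from Daxx-WT (36.5%, against 31.8%) and 6 of 46 the other way (13.0%, against 8.06%). Irf8 held 5 of the 11 peaks at 3 d.p.i. and 8 of the 23 in KLS cells, and -57.8, -50.0 and +71.3 kb were in both sets. Irf8 had 6 peaks in Daxx-WT and 11 in Daxx-KO at 3 d.p.i., and 6 and 14 in KLS cells. In CMPs it had 18 and 11, and in GMPs 17 and 11. The Daxx-KO list thus had more Irf8 peaks in the first pair of populations and fewer in the second. In LT-HSCs with no time label both genotypes had 17, in lists of 65455 (Daxx-WT) and 70455 (Daxx-KO) peaks. The other list totals ran the same way as the Irf8 counts, 36949 and 44326 peaks at 3 d.p.i. and 33325 and 44694 in KLS cells. The part of list totals in these counts was not tested. Of the 23 added KLS peaks 19 lay below the median fold enrichment of the Daxx-KO list, a share that was not taken over all added peaks. The strongest of the 23 was Gfi1 -42.2 kb at percentile 59.2. Of the 23 peaks 18 were in the Daxx-WT LT-HSC list (78.3%, against 78.9% of all peaks of that kind). Shared peaks were slightly wider in Daxx-KO KLS, with a median log2 width ratio of 0.17 at the members and 0.11 over all shared peaks, and slightly narrower in Daxx-KO CMPs, at -0.09 and -0.06.

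The Daxx-KO KLS site table listed 16 sites at the members, 4 higher and 12 lower in Daxx-KO, where 19.1% of all 17311 listed sites were higher. None passed an adjusted p of 0.05 in limma with Benjamini-Hochberg adjustment over all windows the authors tested (0 of 16; over all sites 2.26% were called higher and 1.16% lower), although with a pseudocount of 5 in place of 1 there were 11 calls, all 16 had an unadjusted p under 0.05 and the 2 genotypes did not overlap at any of them. This non-overlap was shared by 99.6% of all listed sites, which the authors' caller had selected on the same libraries, so neither it nor any p from these tables is an independent test. Leaving out Daxx-WT replicate 2 gave 3 called sites. The 4 higher sites all lay in a Daxx-KO peak (64.0% of all higher sites lay in a peak of either group) and 3 of them were at Irf8. At Irf8 -39.0 kb the 3 Daxx-KO libraries had 88.0, 149 and 78.1 scaled reads and the Daxx-WT libraries 39.2 and 60.8 (log2 difference 1.03 ± 0.26 SE, adjusted p = 0.0813). At Irf8 -11.2 kb they were 65.7, 168 and 78.1 against 32.8 and 56.2 (1.13 ± 0.30, adjusted p = 0.0907). At Irf8 +64.0 kb they were 74.6, 76.1 and 58.3 against 31.9 and 33.2 (1.06 ± 0.24, adjusted p = 0.0629). Daxx-KO replicate 2 was the highest library at each of these sites and stood far above the others at -39.0 and -11.2 kb, where the difference fell as low as 0.72 with 1 library left out. All 3 sites lie in stretches that were peaks of the Daxx-KO KLS list and not of the Daxx-WT KLS list.

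The fourth higher site was Klf4 -53.7 kb, with 61.2, 81.4 and 51.7 scaled reads in Daxx-KO against 22.8 and 30.95 (log2 difference 1.23 ± 0.27, adjusted p = 0.0525). Of the 12 lower sites 2 lay in a peak, against 9.68% of all lower sites. One was Gfi1 -32.9 kb, on the edge of the upstream Gfi1 element, with 57.9, 63.9 and 70.6 against 104 and 92.9 (-0.61 ± 0.22, adjusted p = 0.261). The other was Zeb2 -52.5 kb, with 70.2, 77.9 and 83.7 against 163 and 99.7 (-0.72 ± 0.23, adjusted p = 0.151). Both genotypes had a peak at each of these 2 places. The peak of the Gfi1 element itself stood near the top of both lists. Its fold enrichment was 13.0 in Daxx-KO KLS (percentile 98.5) and 12.4 in Daxx-WT KLS (percentile 99.6). Under equal mean reads per window the differences were close to level, at -0.12 for the Gfi1 site and -0.23 for the Zeb2 site. The other 10 lower sites, at Egr1 (2), Egr2 (3), Gfi1, Id2, Irf8, Klf4 and Zeb2, lay outside the peaks of both lists, with at most 59.6 scaled reads in any library. Egr2 -10.5 kb, the most negative of them, had 8.91, 3.50 and 1.88 against 20.1 and 20.6. The largest difference of Irf8 in either direction, -1.89 at +36.5 kb, was of this kind. Irf4 had no site in this table.

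**Figure D3:**
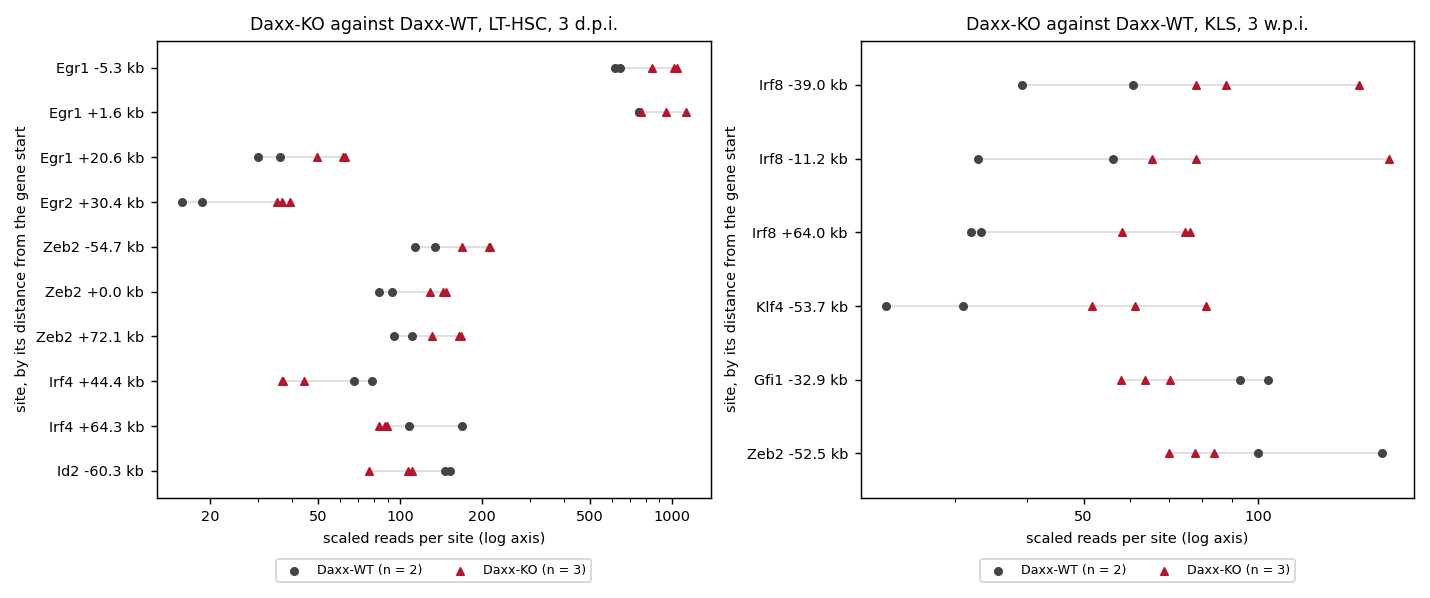
Scaled reads per site (log axis) in every library at the listed member sites that lie in a peak, for LT-HSCs at 3 d.p.i. (left) and KLS cells at 3 w.p.i. (right). Dots are Daxx-WT libraries (n = 2) and triangles Daxx-KO libraries (n = 3). At Irf8 -39.0 and -11.2 kb 1 Daxx-KO library, at 149 and 168, stands above the others.

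For LT-HSCs of 3 d.p.i. the table listed 23 sites at 6 of the members, and none at Gfi1 or Klf4. There were 10 higher and 13 lower sites in Daxx-KO (29.1% of all 11927 listed sites were higher). By limma 3 rose (19.2% of all sites) and 7 fell (25.8%), and 22 of 23 sites had no overlap between the genotypes (99.5% of all). The median log2 difference was -0.63 at the members and -1.05 over all listed sites. With the libraries set to the same mean reads per window, 0 rose and 0 fell, with 8 at an unadjusted p under 0.05. Shares of all listed sites under that scaling are not given. Without 1 library at a time the count was 0 (Daxx-KO library 1), 10 (Daxx-KO library 2), 3 (Daxx-KO library 3), 1 (Daxx-WT library 1) and 1 (Daxx-WT library 2). The differences themselves moved less, from 0.95 to 1.19 at Egr2 +30.4 kb, 0.80 to 1.14 at Irf8 -47.2 kb and -0.99 to -0.77 at Irf4 +44.4 kb.

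The sites that rose at 3 d.p.i. were Egr2 +30.4 kb, Irf4 -10.7 kb and Irf8 -47.2 kb. Egr2 +30.4 kb, on the flank of the element printed above, had 39.5, 35.3 and 37.0 scaled reads in Daxx-KO against 15.8 and 18.8 (log2 difference 1.07 ± 0.28, adjusted p = 0.0323). Irf4 -10.7 kb had 43.1, 37.2 and 45.4 against 14.7 and 22.5 (1.16 ± 0.27, adjusted p = 0.015), in no peak of 3 d.p.i. but at an element of all 6 lists that carry no time label. Of the 10 higher sites 7 lay in a peak (65.8% of all higher sites), and of the 13 lower sites 3 did (13.8% of all lower sites). The 7 were at Egr1 (-5.3, +1.6 and +20.6 kb), Zeb2 (-54.7 kb, the start and +72.1 kb) and Egr2 +30.4 kb. At the Zeb2 start the values were 129, 147 and 144 against 93.5 and 83.5 (0.66 ± 0.19, adjusted p = 0.0617). Zeb2 -54.7 kb had 213, 214 and 169 against 134 and 113 (0.67 ± 0.19, adjusted p = 0.0508). Both Zeb2 sites missed the threshold, and in both every Daxx-KO library lay above every Daxx-WT library.

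Egr1 -5.3 kb had 1014, 1041 and 843 scaled reads in Daxx-KO against 620 and 647 (log2 difference 0.60 ± 0.22, adjusted p = 0.335). The promoter site at +1.6 kb had 954, 1122 and 770 against 754 and 757 (0.31 ± 0.23, adjusted p = 1), and its lowest Daxx-KO library lay close to the Daxx-WT libraries. These were the sites with the most reads of all those at the 8 genes in this table. Lower sites in a peak were Irf4 +44.4 kb, Irf4 +64.3 kb and Id2 -60.3 kb. Irf4 +44.4 kb fell, with 36.7, 37.2 and 44.3 against 67.6 and 78.8 (-0.88 ± 0.22, adjusted p = 0.0269). At Irf4 +64.3 kb, in Exoc2, the values were 89.9, 87.8 and 83.4 against 108 and 169 (-0.63 ± 0.20, adjusted p = 0.108). Id2 -60.3 kb had 77.1, 111 and 107 against 146 and 153 (-0.62 ± 0.19, adjusted p = 0.104). The other calls that fell were outside peaks, 4 of them at Egr1 (-32.4, +33.7, +42.0 and +45.1 kb), 1 at Irf4 +72.4 kb and 1 at Zeb2 +93.4 kb, within 1000 bp of the start of Mir5129. The largest differences of Zeb2, Egr1, Irf4 and Id2 were all at low, peak-free sites, from -1.62 at Zeb2 +153.4 kb to -1.29 at Id2 +13.9 kb.

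The largest differences in the peak lists were in DKO KLS cells. The DKO list held 29 member peaks (0.131% of the list), against 46 in Daxx-WT KLS (0.138%), and 96 of the 123 elements were absent from DKO. The share of all elements of the genome absent from DKO was not taken, so the 96 do not set the members apart. Of the Daxx-WT KLS peaks 26 of 46 had no DKO peak (56.5%, against 48.4% of the whole list) and 7 of 29 DKO peaks had no Daxx-WT peak (24.1%, against 21.4%). The DKO list is also the shortest, with 22156 peaks against 33325, and the part of list length in the missing peaks was not tested. Irf4 had 5 Daxx-WT KLS peaks and 0 in DKO, Irf8 lost 5 of 6 and Zeb2 7 of 9, whereas Egr1 lost 1 of 6 and Gfi1 1 of 6. There were 7 elements present in all lists but DKO, namely the Irf8 promoter and +56.7 kb, the Irf4 promoter, +36.8 and +64.7 kb, and Id2 +42.4 and -60.4 kb. How common this pattern is over all elements of the genome was not determined. Of the 22 shared peaks 19 were narrower and 3 wider in DKO, with a median log2 width ratio of -0.43 against -0.19 over all shared peaks.

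The 7 DKO peaks without a Daxx-WT KLS peak were Gfi1 -51.2 and +47.5 kb, Irf8 -57.8 and -10.6 kb, Egr1 -55.8 and -5.2 kb and Zeb2 +31.6 kb. All 7 ranked below the middle of the DKO list by fold enrichment, the strongest being Egr1 -55.8 kb at percentile 46.0. The ranks of all DKO peaks of this kind were not taken. In the Daxx-WT lists 5 of 7 were in GMPs (71.8% of all DKO peaks of this kind), 2 in CMPs (51.9%) and 3 in LT-HSCs (32.2%). Of the 26 Daxx-WT KLS peaks without a DKO peak, 25 were in the Daxx-WT LT-HSC list (96.2%, against 96.5%) and 17 in the GMP list (65.4%, against 73.9%). Marker genes of neutrophils changed in both directions. Of 5 (Ltf, Ngp, S100a8, Mmp9 and Camp) the DKO list had promoter peaks at Ngp, S100a8 and Camp, and the Daxx-WT KLS list had them at Ltf and Mmp9 only. Of 7 GMP markers each of the lists had promoter peaks at 4. Of 4 erythroid markers 1 had a promoter peak in DKO and 3 in Daxx-WT KLS. Of 8 stem and progenitor markers 3 had a promoter peak in DKO and 4 in Daxx-WT KLS. The part of cell composition in the differences at the members was not tested.

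The DKO site table listed 54 sites at all 8 members, 30 higher and 24 lower (72.1% of all 50928 listed sites were higher). By limma 29 rose (70.9% of all sites) and 23 fell (25.1%), and in all 54 the groups did not overlap (100% of all, to 3 digits). With every library set to the same mean reads per window, 3 rose and the count that fell was 23. Shares of all listed sites that rose or fell under that scaling are not given, so these counts do not set the members apart. The DKO libraries had 10.6 and 15.0 scaled reads per window and the Daxx-WT libraries 7.39 and 8.19, and the part of that background in the higher sites was not tested. Only 7 of the 30 higher sites lay in a peak of either group (11.6% of all higher sites), and 18 of the 24 lower sites did (69.5% of all lower sites). The lower sites were thus mostly elements open in normal cells, and 23 of the 24 overlapped a peak of the Daxx-WT LT-HSC list (89.6% of all lower sites). The count of calls was 10 without Daxx-WT replicate 1, 23 without Daxx-WT replicate 2 and 22 without DKO replicate 2.

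Gfi1 had the most sites, 12, of which 9 rose and 2 fell. The upstream element fell: Gfi1 -33.3 kb had 118 and 98.4 scaled reads in DKO against 304 and 253 in Daxx-WT (log2 difference -1.36 ± 0.25 SE, n = 2 and 2, adjusted p = 5.19e-06). Gfi1 -42.4 kb also fell. In contrast Gfi1 -51.1 kb, a peak of the DKO and Daxx-WT GMP lists alone, rose, with 122 and 113 against 20.4 and 39.5 (2.01 ± 0.29, adjusted p = 2.06e-09). The 2 upstream elements therefore moved in opposite directions within the same libraries, and both held their direction and their call under equal reads per window. At the promoter side, -1.2 kb rose, with 193 and 189 against 74.6 and 102 (1.12 ± 0.25, adjusted p = 0.000375), but its difference was 0.43 under equal reads per window. The +1.3 kb site, with 148 and 113 against 79.0 and 77.9, missed the threshold (0.72 ± 0.26, adjusted p = 0.0509). Both also lie within 1000 bp of a start of the neighbouring gene A430072P03Rik. The site with the widest difference, +11.5 kb, had 115 and 121 against 9.76 and 55.9 (2.26 ± 0.29, adjusted p = 2.79e-11), and the Daxx-WT libraries lay far apart there.

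At the IRF genes the promoters fell. The Irf8 promoter site at -0.1 kb had 75.3 and 54.3 scaled reads in DKO against 131 and 107 (log2 difference -0.88 ± 0.27, adjusted p = 0.0117). Irf8 +16 kb, at an alternative start, fell too, with 48.8 and 44.0 against 87.9 and 76.8 (-0.81 ± 0.28, adjusted p = 0.0388), and so did +7.1, +30.6 and +71.5 kb. Irf8 -11.1 kb rose, with 67.9 and 81.5 against 31.1 and 48.3 (0.92 ± 0.29, adjusted p = 0.0181), and it was close to level, at 0.24, under equal reads per window. This site and the -11.2 kb site of the Daxx-KO table cover the same stretch, and the 2 tables share their Daxx-WT libraries. Irf8 +4.9 kb, in an exon and in no KLS peak, rose with 59.38 and 59.96 against 15.97 and 26.3 (1.49 ± 0.33, adjusted p = 0.000278). At the Irf4 promoter the values were 75.3 and 64.6 against 159 and 156 (-1.16 ± 0.26, adjusted p = 0.000322). Irf4 +37.0 kb, which holds the Pu.1 match printed above, fell with 47.7 and 87.1 against 137 and 125 (-1.01 ± 0.26, adjusted p = 0.0029), and the DKO libraries differed from each other there. Irf4 -53.2 kb, in Dusp22, had 25.5 and 28.1 against 89.6 and 61.4 (-1.44 ± 0.31, adjusted p = 0.000153). All 4 Irf4 sites that rose lay outside peaks.

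Klf4 had 4 sites and all 4 fell. At the promoter, +0.2 kb, the values were 64.7 and 55.3 against 115 and 104 (log2 difference -0.86 ± 0.27, adjusted p = 0.0157). Klf4 +2.2 kb had 90.1 and 63.7 against 130 and 133 (-0.79 ± 0.26, adjusted p = 0.0254), and +59.6 kb had 26.5 and 39.4 against 64.8 and 69.1 (-1.03 ± 0.30, adjusted p = 0.00996). The fourth, -1.7 kb, lay outside peaks. The strong Klf4 +17.5 kb element had no listed site.

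At the EGR genes, the site at Egr1 +28.3 kb fell, with 113 and 122 scaled reads in DKO against 241 and 223 (log2 difference -0.97 ± 0.25, adjusted p = 0.00213). The DKO list kept a peak on part of this element, 840 bp wide against 1663 bp in Daxx-WT KLS. Its fold enrichment was 7.75 in DKO (percentile 88.8) and 6.6 in Daxx-WT KLS (percentile 65.2), so the peak that remained was not weaker by rank. The Egr1 promoter site at +1.5 kb had 207 and 129 against 260 and 230, and it did not pass the threshold (-0.58 ± 0.24, adjusted p = 0.159). Egr1 -55.9 kb, in Kdm3b and within 1000 bp of the start of Gm26538, rose with 218 and 196 against 41.7 and 85.6 (1.77 ± 0.26, adjusted p = 3.32e-09), and it was 1.09 with an adjusted p of 0.279 under equal reads per window. Egr1 +43.6 kb, in Etf1, had the largest log2 difference of all member sites, 28.6 and 45.0 against 7.99 and 4.39 (2.41 ± 0.57, adjusted p = 0.000769), and it lay in no peak. Egr2 -31.2 kb fell with 55.1 and 46.8 against 83.4 and 96.5 (-0.81 ± 0.28, adjusted p = 0.0349). Egr2 +30.9 kb, the element with the C/EBP match, fell with 41.4 and 30.0 against 72.8 and 69.1 (-0.99 ± 0.30, adjusted p = 0.0118), and it was absent from the DKO list.

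Id2 and Zeb2, the 2 members that act through E proteins or E boxes, had 14 sites. Id2 +42.1 kb fell, with 52.0 and 73.1 in DKO against 177 and 147 (log2 difference -1.37 ± 0.26, adjusted p = 1.44e-05), and it lies at the start of Kidins220, and so at the promoter of that gene. The 3 Id2 sites that rose lay outside peaks. At Zeb2 5 sites rose and 5 fell. Those that fell in a peak were -52.5, +6.4, +17.2 and +36.1 kb. Zeb2 -52.5 kb had 59.4 and 48.7 against 167 and 102 (-1.26 ± 0.27, adjusted p = 0.000135), and Zeb2 +17.2 kb had 41.4 and 47.8 against 130 and 81.2 (-1.19 ± 0.28, adjusted p = 0.000651). In both, the Daxx-WT replicates lay well apart and the DKO libraries close together below them. Zeb2 +36.1 kb had 14.9 and 20.6 against 52.4 and 37.3 (-1.29 ± 0.36, adjusted p = 0.00634), and +6.4 kb, at the start of Zeb2os, 91.2 and 61.8 against 135 and 139 (-0.86 ± 0.26, adjusted p = 0.0122). Zeb2 +31.5 kb, an intronic element of the GMP and DKO lists, rose with 106 and 96.5 against 28.4 and 41.7 (1.53 ± 0.29, adjusted p = 1.07e-05).

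**Figure D4:**
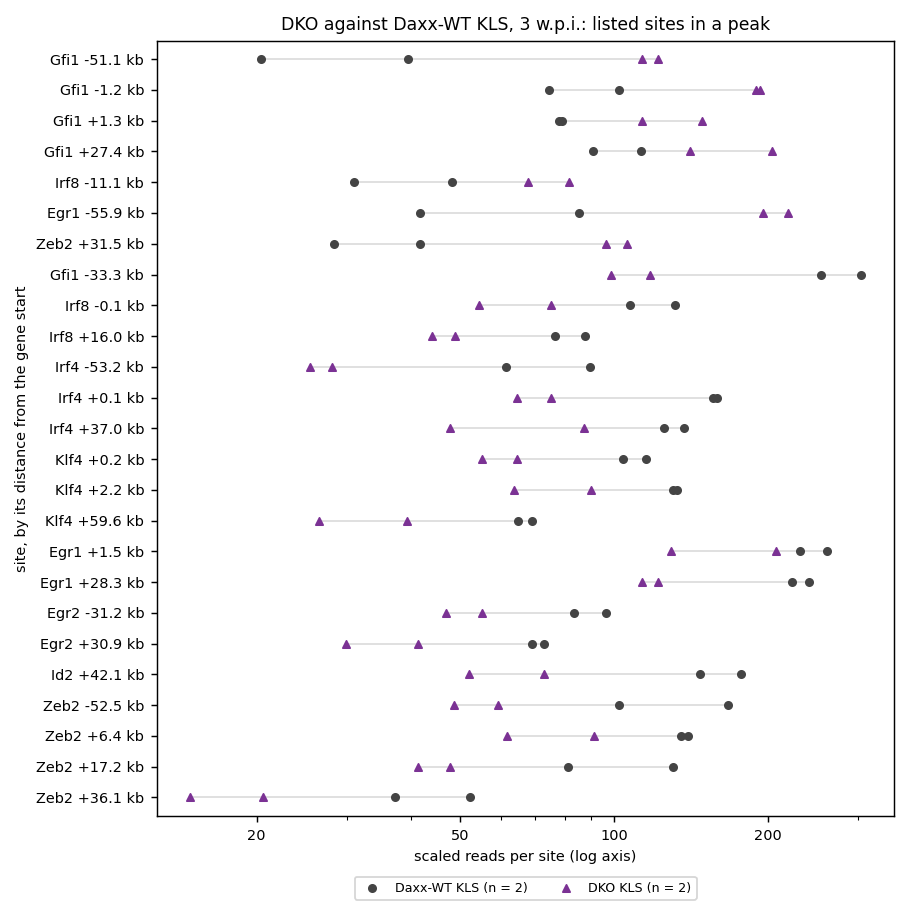
Scaled reads per site (log axis) in every library at the 25 listed member sites of the DKO table that lie in a peak of DKO or Daxx-WT KLS. Dots are Daxx-WT KLS libraries (n = 2) and triangles DKO libraries (n = 2), sites higher in DKO are at the top, and the groups do not overlap at any site, which holds for 100% of listed sites.

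The Daxx-KO and DKO tables share the Daxx-WT KLS libraries, and their values at the same elements are given side by side only. At the upstream Gfi1 element, of which the Daxx-KO site covered only an edge, the log2 difference was -0.61 in Daxx-KO and -1.36 in DKO. At Zeb2 -52.5 kb it was -0.72 and -1.26. At Irf8 -11 kb, the only other stretch listed in both, it was 1.13 and 0.92. None of these Daxx-KO values passed the threshold. Under equal reads per window the pairs were -0.12 and -2.05 at Gfi1, -0.23 and -1.95 at Zeb2, and 1.62 and 0.24 at Irf8. The Irf8 promoter, the Irf4 promoter and the Klf4 promoter had a site in the DKO table and none in the Daxx-KO table. Whether the effects of the 2 genotypes differ was not tested.

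Among 14 partners and targets of the members (Spi1, Cebpa, Cebpb, Cebpd, Cebpe, Runx1, Csf1r, Csf3r, Csf2ra, Mpo, Elane, Batf3, Nab2 and Jun), the DKO table listed 10 promoter sites, of which 9 rose (70.9% of all listed sites) and 0 fell (25.1% of all). They were at Mpo and Elane, which encode granule enzymes of granulocyte precursors, at Cebpe, which acts in late granulocyte maturation, at Csf2ra and at Spi1 itself. The wider of 2 Cebpe sites had 329 and 344 scaled reads against 122 and 145 (log2 difference 1.33 ± 0.24, adjusted p = 7e-06), and the Elane site 105 and 135 against 48.8 and 61.4 (1.11 ± 0.27, adjusted p = 0.00118). Over all their regions 130 of 173 partner sites rose (70.9% of all sites) and 28 fell (25.1% of all), with a median of 1.22 against 1.29 over all sites. Under equal reads per window 9 of the partner sites rose and 30 fell, without shares of all sites to set beside them. The DKO list had promoter peaks at 10 of 14 partners, as did Daxx-WT KLS, and lacked them at Csf1r, Mpo, Elane and Batf3.

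Of 10 relatives of the members (Gfi1b, Irf1, Irf2, Irf5, Klf2, Klf6, Egr3, Id1, Id3 and Zeb1), 6 promoter sites were listed in DKO, and 4 fell (25.1% of all listed sites) and 1 rose (70.9% of all). Irf5, another interferon regulatory factor, fell with 65.8 and 89.9 against 166 and 202 (-1.24 ± 0.25, adjusted p = 7.75e-05), and Gfi1b, the erythroid and megakaryocytic relative of Gfi1, with 58.3 and 64.6 against 122 and 138 (-1.07 ± 0.26, adjusted p = 0.00145). Over all their regions 65 of 92 sites rose and 25 fell, near the shares of all sites (70.9% and 25.1%). The median log2 difference was 1.23 against 1.29 over all sites. Under equal reads per window 5 of these sites rose and 23 fell, again without shares of all sites. Promoter peaks were at 6 of 10 in DKO, without Gfi1b, Irf5, Egr3 and Id3, and at 9 of 10 in Daxx-WT KLS. In the Daxx-KO comparisons few promoter sites were listed. There were 1 partner and 1 relative in KLS cells, with none called (2.26% of all sites rose and 1.16% fell). In LT-HSCs there were 2 and 3, of which Klf6 rose once (19.2% of all sites rose). The Klf6 values were 463, 178 and 205 against 146 and 131 (0.88 ± 0.22, adjusted p = 0.0293).

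**Figure D5:**
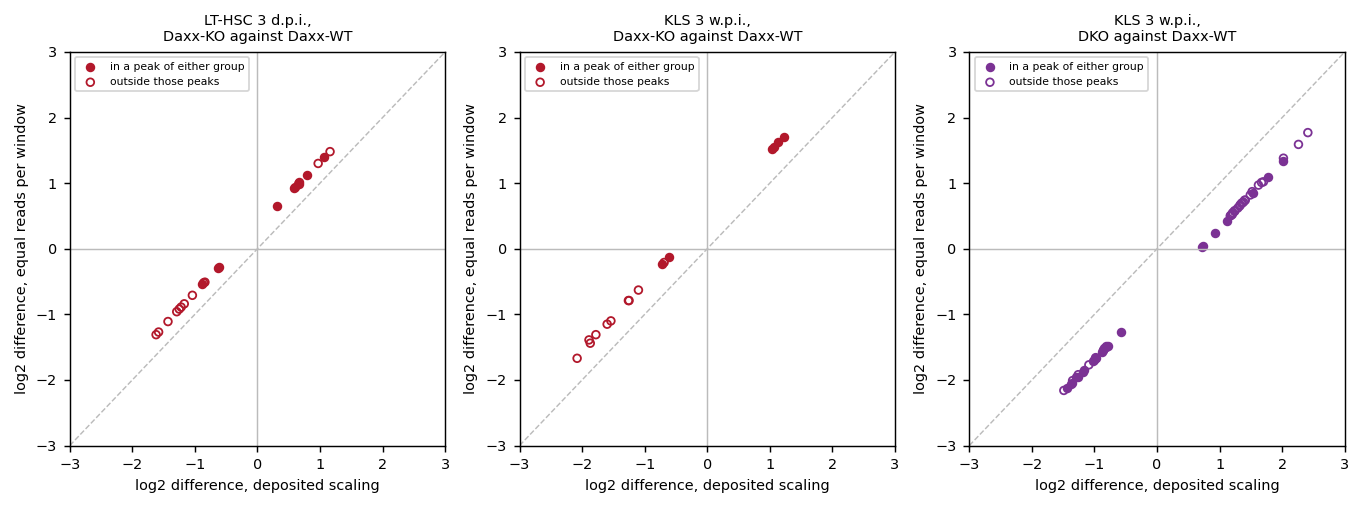
Log2 difference of each member site with the deposited scaling (x axis) and with libraries set to equal mean reads per window (y axis), in the 3 tables; filled points lie in a peak of either group and the dashed line marks equality. The points are shifted by about 0.34, 0.49 and -0.70 on the log2 scale, less at sites with few reads, and none crosses 0 on the y axis.

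Setting libraries to equal mean reads per window changed the scaling between groups by 0.34 in the LT-HSC table, 0.49 in the Daxx-KO KLS table and -0.70 in the DKO table on the log2 scale. Differences at sites with few reads moved less, because of the pseudocount. At Egr2 -10.5 kb in Daxx-KO KLS the difference went from -2.08 to -1.67. No member site changed direction. In DKO the 3 sites that still rose under equal reads were Gfi1 -51.1 kb, Gfi1 -12.9 kb and Egr1 +43.6 kb. In ATAC-seq on a sorted population, fewer cells with an open element and less opening per cell cannot be told apart.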

How the data were processed

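ATAC-seq libraries were analysed from the processed files only. Per the labels, CASAVA 1.8.4, cutadapt 1.13, STAR 2.5.3 and bedtools were used with mm10, and the peak caller and read filters are not given in the sources used here. The 6 lists with no time label hold positions only. The authors deposited the other 5 as conservative lists passed through an irreproducibility filter, with a fold enrichment over the caller's background as signal value, and intervals listed more than once were counted once at their highest value. In the 3 site tables, made by the authors with diffReps 1.55.6 (windows of 600 bp, step 50 bp, fragment 100 bp, negative binomial test, p cutoff 0.0001), the deposited signal is the reads of a library at a site divided by its scaling constant, and the group means are means of these. Columns of the authors' fold changes and p-values were not used. Sites below the cutoff are not in the tables.

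The libraries with no time label were made with another protocol and sequencer than those of 3 d.p.i. and KLS cells. Tests and genotype comparisons were made within a population; comparisons among the LT-HSC, CMP and GMP lists, and look-ups of KLS elements and sites in those lists, cross populations (and, for KLS cells, protocols) and are descriptions. Each gene and 60 kb around it were intersected with peaks and sites (1 bp overlap), and a promoter was 1000 bp around an annotated start. Values were tested as log2(value + 1) with limma 3.58.1 in R 4.3.3 (empirical Bayes with a trend), fitted over all listed sites of a table, with Benjamini-Hochberg adjustment over all windows tested (413247, 407030 and 446463) and a threshold of 0.05. Tests were two-sided and differences are treated minus Daxx-WT on that scale, which understates the change of low sites. The procedure was tested on simulated data. Alternatives were a pseudocount of 5, equal mean reads per window, a minimum mean of 20, a replicate block, 20 kb around the gene, each library left out, a peak overlap of 50% and only peaks above a list's median fold enrichment. Sites at a promoter, in a peak of either group or with the largest difference of a member were eligible to be named, as were promoter peaks, the Irf8 enhancer and the strongest distal peak of each member; other elements and sites were named after their values were seen. Members and gene lists were chosen with earlier results of these data known. Python 3.11.15 with pandas 2.3.3, numpy 2.4.6 and matplotlib 3.10.9 was used for the rest.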

Additional observations from a re-analysis of the deposited data

Results flagged for a closer look

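At Egr1, sites that share 500 bp went in opposite directions in the 2 comparisons of Daxx-KO with Daxx-WT. The site at -5.3 kb was higher in all 3 Daxx-KO LT-HSC libraries at 3 d.p.i. (log2 difference 0.60), and the site at -6.4 kb was lower in all 3 Daxx-KO KLS libraries at 3 w.p.i. (-1.60, with 21.2, 7 and 10.4 scaled reads against 39.2 and 35.5). The first lies in a peak and the second does not, neither passed the threshold in limma, and the difference between the populations was not tested.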

How the results depend on the processing

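No named site changed direction under any alternative run. Counts of called member sites depended on the settings. In LT-HSCs (10 called) the count was 16 with a pseudocount of 5, 0 under equal reads per window, 5 with a minimum mean of 20, 2 within 20 kb and 0 to 10 without 1 library. In Daxx-KO KLS (0 called) it was 11 with a pseudocount of 5 and 0 to 3 without 1 library. In DKO (52 called) it was 26 under equal reads, 28 within 20 kb and 10 to 35 without 1 library, where a lone library is assumed to vary like the others.

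With the replicate block, 4 member sites were called in Daxx-KO KLS and 47 in DKO; deviations of same-numbered libraries correlated at 0.01, 0.05 and 0.00, so the numbers do not pair the libraries. For the LT-HSC table no paired analysis was possible because its columns carry no replicate number. The planned edgeR test on recovered reads was not run.

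Peaks in 1 list only, within 20 kb, numbered 7 for Daxx-KO LT-HSCs, 3 (Daxx-KO) and 6 (Daxx-WT) in CMPs, 0 and 8 in GMPs, 4 and 1 at 3 d.p.i., 8 and 3 in KLS cells, and 3 (DKO) and 12 (Daxx-WT). Within 20 kb fewer peaks are counted by construction. Above the median fold enrichment of their list they numbered 1 and 0 at 3 d.p.i., 4 and 1 in KLS cells, and 0 (DKO) and 7 (Daxx-WT). With a 50% overlap the Daxx-KO GMP count was 2. The cause of the other changes was not tested. Peak lists have no replicates, and the number of libraries limits what the site tables can show.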
